A study of Mus musculus with 6 samples.

Results

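Astrocyte connexins, channels and secreted proteins were followed through 10 genes picked by symbol from a table of 14327 genes. They are the connexins Gjb6 and Gja1, the water channel Aqp4, the secreted or calcium-binding proteins Sparcl1, Sparc, S100b and Agt, the surface receptors Cd44 and Ntsr2, and the lipid enzyme Acsbg1. All 10 were in the table and all 10 passed the filter, a mean of 1 FPKM or more over the 6 libraries, as did 11596 genes in all. Gjb6 had been picked because its values were higher in cKO-labelled libraries, so its difference is given as a description with no test. The other 9 are listed by function, although earlier results of these data were known when the list was made.

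The libraries came from neurospheres, which are spheres of neural progenitors kept in suspension, taken from mouse hippocampus at postnatal day 0 in DMEM-F12 medium with B27, N2, EGF and bFGF. There were 3 libraries from Slc22a17 conditional knockout (cKO) mice and 3 from wild-type (WT) mice, and cKO and WT cultures had the same medium. Slc22a17 encodes a membrane receptor that takes up the iron-carrying protein lipocalin 2, and the series concerns iron balance and neuron formation in the hippocampus. The sources used here do not name the driver of the deletion, the strain or the number of animals per culture, nor do they say if same-group libraries are separate cultures. The p-values thus rest on a spread between libraries that may be technical.

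FPKM is a fragment count scaled to transcript length and library size, so levels of different genes can be set side by side. The values carry no read totals, and the depth of each library is unknown. Slc22a17 transcripts were at 164, 166 and 187 FPKM in cKO-labelled libraries, against 181, 169 and 204 FPKM in WT. The log2 fold change was -0.097 (95% interval -0.29 to 0.10, adjusted p = 0.707 in limma), so the label is not borne out by loss of the transcript. The value was -0.023 to -0.16 with 1 library left out, nearest 0 without WT replicate 3. It was -0.24 against WT replicate 3 alone and -0.45 (95% interval -0.84 to -0.057, adjusted p = 0.921 in limma) after adjustment for the Y-linked share, described below. The sources used here do not say whether the counted region includes the deleted part. Every direction below is one between libraries by their label. The Y-linked transcripts Ddx3y and Eif2s3y together reached 43.8 to 51.2 FPKM in cKO-labelled libraries, against 25.9 FPKM in WT replicate 3 and at most 0.10 FPKM in WT replicates 1 and 2. WT replicate 3 therefore stands apart from the other 2 WT libraries in these transcripts, and Y-linked content cannot be told apart from the label. Over all tested genes WT replicate 3 correlated at r = 0.995 with WT replicate 1 and 0.990 with WT replicate 2, against 0.994 between those 2. The stem cell markers Nes and Sox2 were at 82.3 to 110 and 123 to 137 FPKM in cKO-labelled libraries, against 80.7 to 118 and 125 to 148 FPKM in WT, while Hopx of the same marker list differed more and is given with the other markers below. The neuronal marker Dcx did not exceed 0.47 FPKM in any library.

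Astrocytes are joined into networks by gap junctions, channels made of connexins that let ions and small metabolites pass between neighbouring cells. Mature astrocytes also place water channels on the endfeet that touch blood vessels and secrete glycoproteins that promote or restrain synapse formation. Radial glia-like neural stem cells of the hippocampus share many of these transcripts, so that their presence does not by itself tell both cell types apart.

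The promoters of 4 members are shown because the 2 connexins are read beside each other below, and because Sparc and S100b took the same order across libraries, the reverse of that of Gja1. Each is the 250 bases before the annotated start, 5′ to 3′ on the strand of the gene, from RefSeq on GRCm38.p6. They lie at chr14:57133612-57133861 on the minus strand for Gjb6, chr10:56377050-56377299 on the plus strand for Gja1, chr11:55420081-55420330 on the minus strand for Sparc and chr10:76253586-76253835 on the plus strand for S100b. Capitals mark matches, on either strand, to the nuclear factor I half-site TTGGC, the STAT motif TTCNNNGAA, the AP-1 motif TGANTCA and the TATA box TATAAA, and no marked match overlaps another.
Gjb6: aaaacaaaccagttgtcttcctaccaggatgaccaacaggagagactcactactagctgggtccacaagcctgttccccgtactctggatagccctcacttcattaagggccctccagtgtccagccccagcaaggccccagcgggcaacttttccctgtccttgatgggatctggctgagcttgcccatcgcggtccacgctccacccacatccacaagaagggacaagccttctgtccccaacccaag
Gja1: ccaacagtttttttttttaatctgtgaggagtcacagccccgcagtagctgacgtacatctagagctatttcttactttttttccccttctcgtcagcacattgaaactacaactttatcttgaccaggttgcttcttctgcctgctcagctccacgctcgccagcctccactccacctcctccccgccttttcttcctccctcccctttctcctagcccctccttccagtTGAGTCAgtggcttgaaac
Sparc: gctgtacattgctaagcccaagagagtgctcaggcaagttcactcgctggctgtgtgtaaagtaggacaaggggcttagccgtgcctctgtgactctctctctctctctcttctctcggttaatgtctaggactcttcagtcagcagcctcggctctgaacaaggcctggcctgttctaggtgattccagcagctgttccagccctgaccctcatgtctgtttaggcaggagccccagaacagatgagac
S100b: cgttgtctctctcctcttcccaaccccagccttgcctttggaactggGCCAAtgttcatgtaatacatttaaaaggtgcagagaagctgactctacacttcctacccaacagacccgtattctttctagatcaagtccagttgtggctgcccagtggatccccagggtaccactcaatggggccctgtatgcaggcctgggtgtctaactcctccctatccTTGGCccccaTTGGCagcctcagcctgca
The Gja1 promoter held 1 AP-1 match and that of S100b 3 nuclear factor I half-sites, while those of Gjb6 and Sparc held no match to any of the 4 motifs. Promoters of 8 members were searched. That of Aqp4 was left out of the search, and none was available for Sparcl1. Of the 8, 4 held the half-site, 3 the STAT motif (Agt, Ntsr2 and Acsbg1), 1 the AP-1 motif and 1 the TATA box (Agt). Of 32817 promoter windows of the same length, 41.5% held the half-site, 7.01% the STAT motif, 6.75% the AP-1 motif and 12.4% the TATA box. These matches describe letters in a window and not bound sites.

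The members spanned a wide range of levels. In cKO-labelled libraries the order of mean FPKM was Sparcl1, Acsbg1, Gja1, Aqp4, Ntsr2, Sparc, Agt, Gjb6, Cd44 and S100b. In WT it was Acsbg1, Sparcl1, Gja1, Aqp4, Ntsr2, Sparc, Agt, Cd44, Gjb6 and S100b. Acsbg1, at a mean of 616 FPKM in WT, was the 64th most abundant of all 14327 genes there, and S100b, at 6.13 FPKM, was in place 8307. Neighbours whose ranges overlapped in cKO-labelled libraries were Sparcl1 and Acsbg1, Aqp4 and Ntsr2, Ntsr2 and Sparc, and Agt and Gjb6. In WT only Acsbg1 and Sparcl1, and Agt and Cd44, overlapped. Within each single library, Sparcl1 stood above Acsbg1 in 3 of 3 cKO-labelled libraries, and Acsbg1 above Sparcl1 in 3 of 3 WT libraries.

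**Figure D1:**
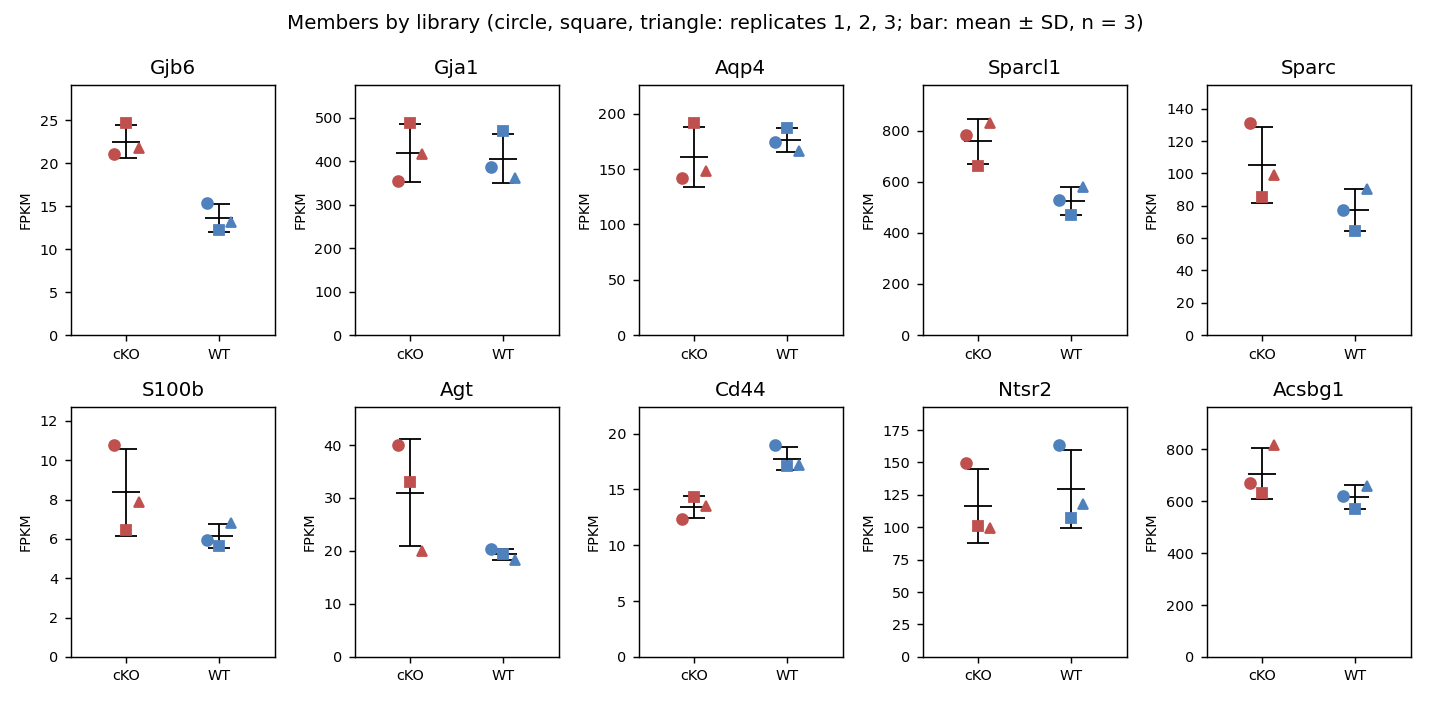
FPKM of each member (y axis, starting at 0) in cKO-labelled libraries and in WT (x axis), with 1 symbol per replicate and bars for the mean ± SD (n = 3). The groups are apart for Gjb6, Sparcl1 and Cd44 and overlap for the other 7 genes, and Agt in cKO-labelled libraries spans 20.1 to 40.03 FPKM.

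Across all tested genes 3 passed an adjusted p of 0.05 in limma, which is 0.0259% of the 11596. None of the 9 members given a test was among them (0 of 9). Of these 9 members 5 had an unadjusted p under 0.05, Sparcl1, Sparc, S100b, Agt and Cd44, against 12.3% of all tested genes. The groups did not overlap for 3 of the 10, Gjb6 and Sparcl1 higher and Cd44 lower in cKO-labelled libraries. Of all tested genes 7.07% did not overlap and were higher, and 10.2% did not overlap and were lower. Gjb6 was picked on this contrast and the list was made with its results known, so these counts support nothing. Of the 9 members without Gjb6, 6 had a higher mean log2 value under the cKO label, beside 44.5% of all tested genes. The same 44.5% and 12.3% are the shares to set beside the counts of means and of unadjusted p in each list below. The median log2 fold change was 0.28 over the 10 members and 0.19 over the 9 without Gjb6, beside -0.015 over all tested genes.

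The 2 connexins stood at different levels, and the groups were apart for Gjb6 but not for Gja1. Gjb6 (identifier 14623, chromosome 14, 57123301 to 57133611 in GRCm38) encodes Cx30, a connexin found in astrocytes once they mature. It was at 21.1, 24.7 and 21.8 FPKM in cKO-labelled libraries, against 15.4, 12.2 and 13.1 FPKM in WT. Each of the 3 cKO-labelled libraries lay above each WT library, WT replicate 3 included. The means were 22.5 ± 1.90 FPKM in cKO-labelled libraries and 13.6 ± 1.64 FPKM in WT (SD, n = 3 each), 1.66 times the WT mean, with a log2 fold change of 0.69 that is given without a test. Against WT replicate 3 alone this was 0.73, and leaving that library out gave 0.67. Over the 6 settings that left out 1 library it ranged from 0.63 to 0.78.

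Gja1 (identifier 14609, chromosome 10, 56377300 to 56390419) encodes Cx43, the connexin that is also abundant in neural stem cells. It was at 355, 487 and 416 FPKM in cKO-labelled libraries, against 387, 468 and 361 FPKM in WT, and the groups overlapped throughout. On the log2 scale the difference was 0.045 (SE 0.13, 95% interval -0.26 to 0.35, adjusted p = 0.927 in limma). Its sign turned without cKO replicate 2 (-0.069) and without WT replicate 3 (-0.034), and the interval leaves a difference of either sign. Per library Gja1 stood at 16.8, 19.8 and 19.1 times the FPKM of Gjb6 in cKO-labelled libraries, against 25.1, 38.3 and 27.5 times in WT. This ratio needs no scaling between libraries, and since Gjb6 enters it, it is a description too.

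Of 16 gap junction and hemichannel genes listed, 12 were in the table and 8 were tested. None passed in either direction, with 4 means higher and 4 lower and a median difference of 0.019 on the log2 scale. Gjc1, a connexin of neurons and vessel walls, was at 2.42, 3.81 and 4.66 FPKM in cKO-labelled libraries, against 5.39, 7.76 and 6.16 FPKM in WT (log2 fold change -0.70, adjusted p = 0.235 in limma). All 3 of its values under the cKO label were below those of WT. Of the 6 tested genes that are no members, 1 had an unadjusted p under 0.05, Gjc1, beside 12.3% of all tested genes. Gjb2, another connexin of astrocytes, was near the filter, at 0.85, 1.72 and 1.14 FPKM in cKO-labelled libraries and at 1.06, 1.45 and 0.81 FPKM in WT.

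The 5 tested protein-coding genes closest to Gjb6 by Pearson's r of log2(FPKM + 1) over the 6 libraries, out of 11571 candidates, were B4galt4 (r = 0.994), Azin1 (r = 0.991), Acsl6 (r = 0.985), Smarcal1 (r = 0.981) and Acad11 (r = 0.980). This measure includes the step between the labels for which Gjb6 was picked. B4galt4, a galactosyltransferase, was at 12.3, 12.9 and 12.5 FPKM in cKO-labelled libraries, against 10.95, 10.5 and 10.7 FPKM in WT. Acsl6, a long-chain acyl-CoA synthetase of the brain, was at 168, 198 and 179.8 FPKM in cKO-labelled libraries, against 145, 132 and 139 FPKM in WT.

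Aqp4 (identifier 11829, chromosome 18, 15389394 to 15410982) encodes the main water channel of astrocyte endfeet. It was at 142, 192 and 149 FPKM in cKO-labelled libraries, against 175, 188 and 167 FPKM in WT. Replicates 1 and 3 under the cKO label lay below every WT library and replicate 2 lay above every one. As a log2 fold change this was -0.14 (SE 0.11, 95% interval -0.40 to 0.11, adjusted p = 0.656 in limma), and -0.063 against WT replicate 3 alone. It was -0.27 without cKO replicate 2 (95% interval -0.45 to -0.10, adjusted p = 0.295 in limma), -0.060 without cKO replicate 1 and -0.092 without cKO replicate 3. Of 20 listed aquaporins, members of the dystrophin complex that anchors Aqp4 and other endfoot genes, Hepacam among them, 14 were tested and none passed. The means of 7 were higher and of 7 lower. Of the 13 besides Aqp4, 1 had an unadjusted p under 0.05, beside 12.3% of all tested genes. Dtna, a dystrobrevin of that complex, was at 56.7, 57.0 and 56.3 FPKM in cKO-labelled libraries, against 45.1, 41.0 and 46.5 FPKM in WT (log2 fold change 0.35, adjusted p = 0.131 in limma). Its groups did not overlap, and the same held for Hepacam, an adhesion protein of astrocyte contacts, which averaged 211 FPKM in cKO-labelled libraries and 191 FPKM in WT (adjusted p = 0.498 in limma).

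**Figure D2:**
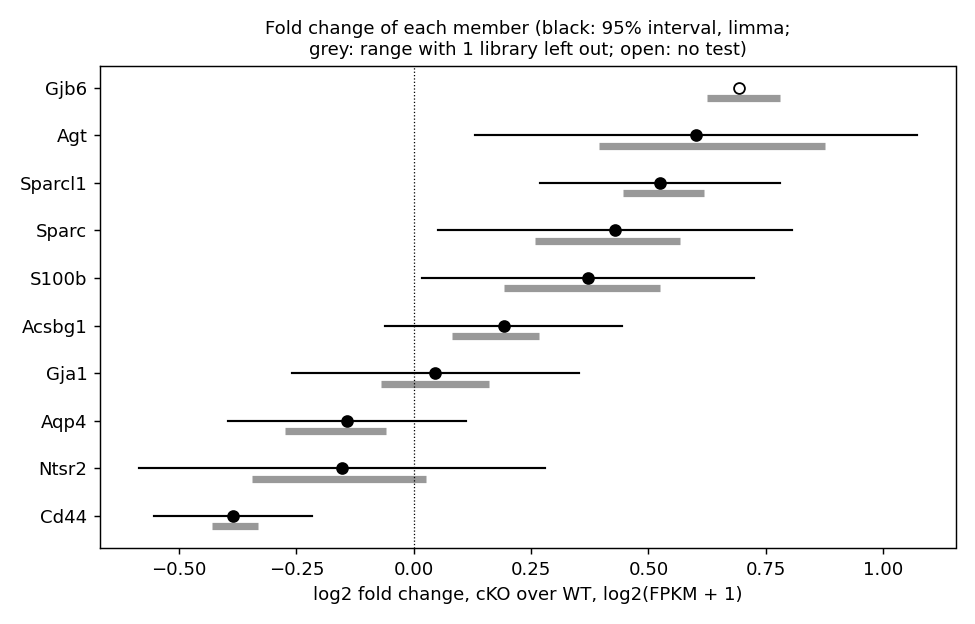
Log2 fold change of each member, cKO-labelled libraries over WT on log2(FPKM + 1) (x axis), with 1 row per gene. Black lines are 95% intervals from limma, grey bars the range with 1 library left out, and the open circle marks Gjb6, given without a test. The intervals of Sparcl1, Sparc, S100b and Agt lie above 0 and that of Cd44 below 0, before any adjustment over the 11596 genes tested.

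Among the secreted and calcium-binding proteins all 4 means were higher in cKO-labelled libraries, and none passed. Of all tested genes 44.5% had a higher mean, and the list was made with earlier results known. Sparcl1 (identifier 13602, chromosome 5, 104079108 to 104114088) encodes hevin, a matrix glycoprotein by which astrocytes promote synapse formation. It was at 781, 661 and 829 FPKM in cKO-labelled libraries, against 528, 469.9 and 580.02 FPKM in WT. The lowest value under the cKO label was above the highest in WT. The means were 757 ± 86.4 FPKM in cKO-labelled libraries and 526 ± 55.1 FPKM in WT (SD, n = 3 each), with a log2 fold change of 0.52 (SE 0.11, 95% interval 0.27 to 0.78, adjusted p = 0.189 in limma). Without WT replicate 3 the log2 fold change was 0.60 (adjusted p = 0.135 in limma), against WT replicate 3 alone 0.38, and after adjustment for the Y-linked share 0.095 (adjusted p = 0.976 in limma). With library weights it passed, at an adjusted p of 0.0359 in limma, over a range of 0.0359 to 0.999 for all alternatives.

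Sparc (identifier 20692, chromosome 11, 55394159 to 55420080), whose product binds collagen and counters the synaptic action of hevin, was at 131, 85.1 and 99.0 FPKM in cKO-labelled libraries. It was at 77.1, 64.5 and 90.2 FPKM in WT. The groups overlapped, since cKO replicate 2 lay below WT replicate 3. The log2 fold change was 0.43 (SE 0.16, 95% interval 0.053 to 0.80, adjusted p = 0.347 in limma), 0.55 without WT replicate 3, 0.26 without cKO replicate 1 (95% interval -0.064 to 0.58), 0.19 against WT replicate 3 alone and -0.23 after adjustment for the Y-linked share. Of 8 SPARC family genes 6 were in the table and 5 tested, with 4 means higher, 1 lower and none past the threshold. An unadjusted p under 0.05 was found for 0 of the 3 that are no members, beside 12.3% of all tested genes. Smoc1, another calcium-binding matrix protein of the family, was at 88.9, 75.4 and 90.3 FPKM in cKO-labelled libraries, against 80.5, 74.8 and 85.4 FPKM in WT (adjusted p = 0.767 in limma).

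S100b (identifier 20203, chromosome 10, 76253836 to 76261319) encodes a calcium-binding protein of astrocytes that is also made by cells of the oligodendrocyte lineage. It was the lowest member, at 10.8, 6.44 and 7.87 FPKM in cKO-labelled libraries, against 5.94, 5.63 and 6.81 FPKM in WT. The highest value was that of cKO replicate 1, and cKO replicate 2 lay below WT replicate 3. In limma the log2 fold change came to 0.37 (SE 0.15, 95% interval 0.017 to 0.73, adjusted p = 0.388 in limma), and 0.19 without cKO replicate 1. Of 11 listed S100 family genes and partners, 10 were tested, with none past the threshold. Means were higher for 2 and lower for 8, beside 44.5% of all tested genes with a higher mean. Of the 9 besides S100b, 0 had an unadjusted p under 0.05, beside 12.3% of all tested genes. S100a4 averaged 4.87 FPKM in cKO-labelled libraries and 6.45 FPKM in WT (adjusted p = 0.427 in limma), and S100a10 averaged 26.1 FPKM in cKO-labelled libraries and 32.2 FPKM in WT (adjusted p = 0.440 in limma), so the means of these relatives lay the other way.

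Agt (identifier 11606, chromosome 8, 124556587 to 124569706) encodes angiotensinogen, the precursor of the angiotensin peptides, which astrocytes make in the brain. It was at 40.03, 33.0 and 20.1 FPKM in cKO-labelled libraries, against 20.4, 19.4 and 18.3 FPKM in WT. Replicates 1 and 2 under the cKO label were above every WT library, while replicate 3 lay within the WT range. The SD on the log2 scale was 0.50 in cKO-labelled libraries and 0.072 in WT, beside medians over all tested genes of 0.094 in cKO-labelled libraries and 0.085 in WT. The log2 fold change was 0.60 (SE 0.21, 95% interval 0.13 to 1.07, adjusted p = 0.298 in limma), 0.88 without cKO replicate 3 (adjusted p = 0.0667 in limma) and 0.40 without cKO replicate 1.

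Of 17 listed genes of the angiotensin system, 10 were in the table and 7 tested, with 3 means higher, 4 lower and none past the threshold. Besides Agt, 2 of 6 had an unadjusted p under 0.05, beside 12.3% of all tested genes. Prcp, a carboxypeptidase that cleaves angiotensins, was at 8.23, 11.5 and 10.8 FPKM in cKO-labelled libraries, against 12.7, 14.1 and 12.6 FPKM in WT (log2 fold change -0.35, adjusted p = 0.279 in limma). Its groups did not overlap. Atp6ap2, the prorenin receptor, was at 34.6, 32.4 and 33.9 FPKM in cKO-labelled libraries, against 30.4, 29.5 and 30.9 FPKM in WT (log2 fold change 0.15, adjusted p = 0.331 in limma), also without overlap. Ace, the angiotensin-converting enzyme, was under the filter, at 0.64 to 0.70 FPKM in cKO-labelled libraries and 0.45 to 0.85 FPKM in WT.

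Both surface receptors were lower on average under the cKO label, and neither passed. Cd44 (identifier 12505, chromosome 2, 102811141 to 102901669), the hyaluronan receptor of astrocyte precursors, was at 12.3, 14.3 and 13.5 FPKM in cKO-labelled libraries. It was at 19.0, 17.1 and 17.2 FPKM in WT, above every value under the cKO label. The means were 13.4 ± 0.99 FPKM in cKO-labelled libraries and 17.8 ± 1.06 FPKM in WT (SD, n = 3 each), with a log2 fold change of -0.38 (SE 0.074, 95% interval -0.55 to -0.22, adjusted p = 0.176 in limma). It was -0.40 without WT replicate 3, -0.34 against WT replicate 3 alone and -0.25 after adjustment for the Y-linked share. With library weights Cd44 passed (adjusted p = 0.0282 in limma), and over all alternatives its adjusted p ranged from 0.0282 to 0.999.

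Of 16 genes of the Cd44, hyaluronan and membrane linker list, 11 were tested and none passed the threshold. Means were lower for 10 and higher for 1, beside 44.5% of all tested genes with a higher mean. The median log2 fold change was -0.18. Besides Cd44, 2 of 10 genes had an unadjusted p under 0.05, beside 12.3% of all tested genes. Msn, moesin, which ties the tail of the Cd44 protein to actin, was at 49.9, 55.3 and 48.2 FPKM in cKO-labelled libraries, against 63.0, 58.2 and 59.3 FPKM in WT (log2 fold change -0.23, adjusted p = 0.244 in limma). Hmmr, a hyaluronan-binding protein of the mitotic spindle, was at 11.5, 10.8 and 13.6 FPKM in cKO-labelled libraries, against 14.2, 19.9 and 14.5 FPKM in WT (log2 fold change -0.40, adjusted p = 0.294 in limma). Neither gene overlapped between the groups. Hmmr is also a gene of dividing cells, whose markers are given below.

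Ntsr2 (identifier 18217, chromosome 12, 16653443 to 16660236) encodes a low-affinity receptor for the peptide neurotensin that astrocytes carry. It was at 149.5, 101 and 99.1 FPKM in cKO-labelled libraries, against 164, 107 and 118 FPKM in WT, with a high replicate 1 under both labels and overlapping groups. The log2 fold change was -0.15 (SE 0.19, 95% interval -0.59 to 0.28, adjusted p = 0.801 in limma), and it turned to 0.026 without WT replicate 1. With each of the other libraries left out in turn it was -0.34 to -0.050, lowest without cKO replicate 1, and with library weights -0.48 (adjusted p = 0.162 in limma). Of the 6 neurotensin genes listed 4 were in the table, all tested, with 1 mean higher, 3 lower and none past the threshold. An unadjusted p under 0.05 was found for 0 of the 3 besides Ntsr2, beside 12.3% of all tested genes. Sorl1, a sorting receptor related to the neurotensin receptor sortilin, averaged 27.0 FPKM in cKO-labelled libraries and 30.6 FPKM in WT (adjusted p = 0.610 in limma).

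Acsbg1 (identifier 94180, chromosome 9, 54604886 to 54661885) encodes an acyl-CoA synthetase that activates long fatty acids in the brain. It was at 670.2, 633 and 818 FPKM in cKO-labelled libraries, against 620.4, 569.7 and 659 FPKM in WT. Only cKO replicate 2 lay within the WT range. Its log2 fold change was 0.19 (SE 0.11, 95% interval -0.060 to 0.44, adjusted p = 0.523 in limma), and 0.092 against WT replicate 3 alone. Without cKO replicate 3, the library at 818 FPKM, it was 0.082. Of 11 long-chain acyl-CoA synthetases listed 8 were tested, with 6 means higher, 2 lower and none past the threshold. An unadjusted p under 0.05 was found for 1 of the 7 besides Acsbg1, beside 12.3% of all tested genes. Acsl6, whose values stand above, had a log2 fold change of 0.39 (adjusted p = 0.176 in limma), and Slc27a1, a fatty acid transporter with synthetase activity, one of 0.14 (adjusted p = 0.503 in limma). For none of the 10 members did an exon overlap that of another gene in GENCODE M21.

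Within each group some members took the same order of libraries and others the reverse. Among cKO-labelled libraries, Gja1 and Aqp4 were both highest in replicate 2 and lowest in replicate 1, while Sparc and S100b were both highest in replicate 1 and lowest in replicate 2. In WT, Gja1 and Aqp4 were both highest in replicate 2 and lowest in replicate 3, and Sparc and S100b were both highest in replicate 3 and lowest in replicate 2. Relative to the mean of its own group on the log2 scale, Gja1 stood at -0.23, 0.23 and 0.00053 in cKO-labelled libraries and at -0.058, 0.22 and -0.16 in WT. Sparc stood at 0.34, -0.28 and -0.062 in cKO-labelled libraries and at 0.010, -0.24 and 0.23 in WT. Sparcl1 and Acsbg1 were lowest in replicate 2 and highest in replicate 3 under both labels. This order was noticed after the values were seen, and with 3 libraries a group it is a description.

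The mean log2 level of 7 oligodendrocyte markers was also highest in replicate 2 under both labels, at -0.67, -0.20 and -0.55 relative to the WT mean in cKO-labelled libraries and at -0.23, 0.18 and 0.043 in WT. Mbp, the myelin basic protein, was at 27.0, 53.0 and 36.4 FPKM in cKO-labelled libraries, against 46.0, 75.0 and 61.3 FPKM in WT. The part of these markers in the order of the members was not tested.

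**Figure D3:**
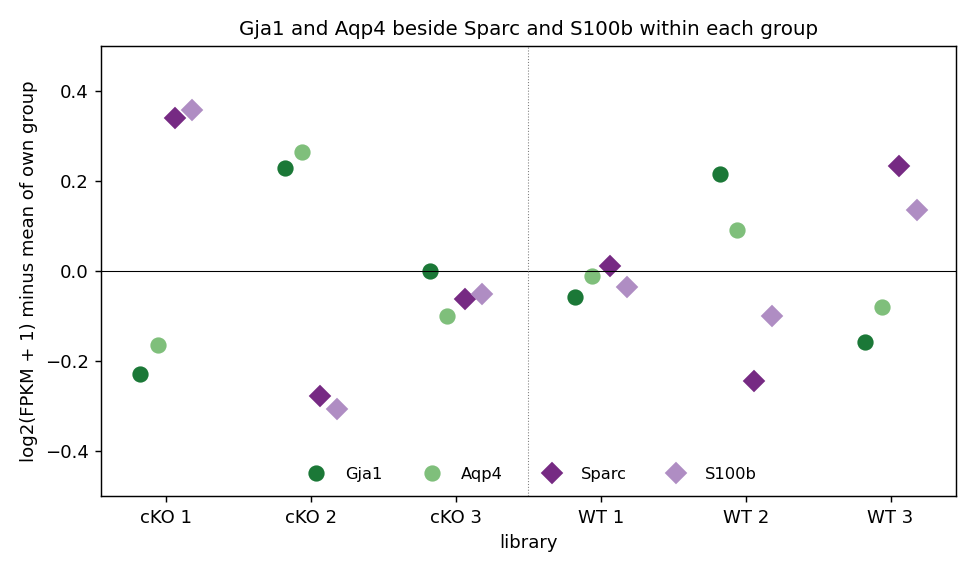
Log2(FPKM + 1) of Gja1, Aqp4, Sparc and S100b minus the mean of the library's own group (y axis) in each library (x axis, cKO-labelled libraries left and WT right of the dotted line), 1 point per gene and library. The circles of Gja1 and Aqp4 and the diamonds of Sparc and S100b are on opposite sides of 0 in cKO replicates 1 and 2 and in WT replicates 2 and 3.

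Other astrocyte genes lay in both directions. Of 40 such genes 39 were tested, with 22 means higher, 17 lower and none past the threshold, and a median of 0.095 on the log2 scale. The groups did not overlap for 7 higher and 2 lower genes of these 39, beside 7.07% and 10.2% of all tested genes. An unadjusted p under 0.05 in limma was found for 9, beside 12.3% of all tested genes. Most of these 9 had higher means under the cKO label. The list was made with earlier results known, so these counts are a description. Pla2g7, a secreted phospholipase of astrocytes, was at 1145, 976 and 1048 FPKM in cKO-labelled libraries, against 787, 673 and 862 FPKM in WT (log2 fold change 0.45, adjusted p = 0.235 in limma). Slco1c1, a thyroid hormone transporter, was at 1.66, 4.30 and 3.14 FPKM in cKO-labelled libraries, against 11.5, 12.7 and 4.13 FPKM in WT (log2 fold change -1.31, adjusted p = 0.244 in limma). Its WT values were far apart, and WT replicate 3 was close to cKO-labelled libraries. Aldoc, the aldolase of astrocytes, averaged 1337 FPKM in cKO-labelled libraries and 1013 FPKM in WT (log2 fold change 0.41, adjusted p = 0.248 in limma).

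Of 18 genes listed for reactive astrocytes, 11 were tested, with 3 means higher, 8 lower, none past the threshold and a median of -0.13 on the log2 scale. Emp1, an epithelial membrane protein, was at 1.24, 1.75 and 1.36 FPKM in cKO-labelled libraries, against 3.10, 2.18 and 1.89 FPKM in WT (adjusted p = 0.282 in limma). In all, 3 of the 11 had an unadjusted p under 0.05 in limma, beside 12.3% of all tested genes, all 3 with lower means under the cKO label. Vim, the intermediate filament protein vimentin, averaged 996 FPKM in cKO-labelled libraries and 1086 FPKM in WT (adjusted p = 0.664 in limma).

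Markers of other cells and of division are given here beside the members. Of the 8 neural stem cell markers, all tested, 4 means were higher, 4 lower and none passed, and they summed to 344 to 360.4 FPKM in cKO-labelled libraries and 346 to 370.1 FPKM in WT. Hopx, a homeodomain protein of hippocampal stem cells and astrocytes, was at 17.9, 14.2 and 22.1 FPKM in cKO-labelled libraries, against 5.65, 4.34 and 7.92 FPKM in WT. Its groups were apart, with a ratio of means of 3.03 (log2 fold change 1.46, SE 0.20, adjusted p = 0.103 in limma). Hes1, a transcriptional repressor downstream of Notch, was at 10.4, 7.91 and 10.9 FPKM in cKO-labelled libraries, against 11.6, 11.7 and 12.5 FPKM in WT, lower without overlap (log2 fold change -0.28, adjusted p = 0.353 in limma). All 9 markers of dividing cells averaged lower under the cKO label, while 44.5% of all tested genes averaged higher. None of the 9 passed the threshold, at a median of -0.40 on the log2 scale. Their summed level was 284 to 380.2 FPKM in cKO-labelled libraries, against 373 to 428 FPKM in WT. All 7 oligodendrocyte markers had lower means, beside the same 44.5% of all tested genes with higher means. They summed to 237 to 281 FPKM in cKO-labelled libraries and 284 to 349 FPKM in WT, and 0 of 7 passed. The 7 oligodendrocyte precursor markers summed to 1115 to 1403 FPKM in cKO-labelled libraries and 1132 to 1588 FPKM in WT, most of it Olig1. The 10 microglial markers summed to 7.12 to 17.8 FPKM in cKO-labelled libraries and to 13.1 to 14.5 FPKM in WT, with Aif1 at no more than 0.60 FPKM. The 12 neuron markers summed to 94.3 to 117 FPKM in cKO-labelled libraries and 97.0 to 105 FPKM in WT, most of it Map2, which is not confined to neurons. The 5 ependymal markers in the table summed to 32.9 to 39.6 FPKM in cKO-labelled libraries and 39.3 to 44.0 FPKM in WT. Endothelial markers, 4 in the table, summed to at most 1.65 FPKM in any library, and Cldn5, Pecam1 and Cdh5 were not in the table used here. The 5 pericyte and fibroblast markers in the table summed to 3.62 to 5.41 FPKM in cKO-labelled libraries and 3.96 to 4.55 FPKM in WT, and Col1a1 did not exceed 0.11 FPKM. At an unadjusted p under 0.05 in limma, beside 12.3% of all tested genes, there were 7 of the 9 tested markers of dividing cells and 6 of the 7 of oligodendrocytes, all with lower means under the cKO label. The same threshold held 2 of the 8 of neural stem cells (Hopx higher, Hes1 lower), 2 of the 5 of neurons (Tubb3 and Elavl4, both higher) and 1 of the 4 of ependyma (Rarres2, lower), and 0 of the 7, 3 and 1 tested markers of oligodendrocyte precursors, microglia, and pericytes and fibroblasts. The part of each of these in the members' values was not tested. In bulk libraries a larger share of astrocyte-like cells and more RNA of a gene per cell cannot be told apart.

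**Figure D4:**
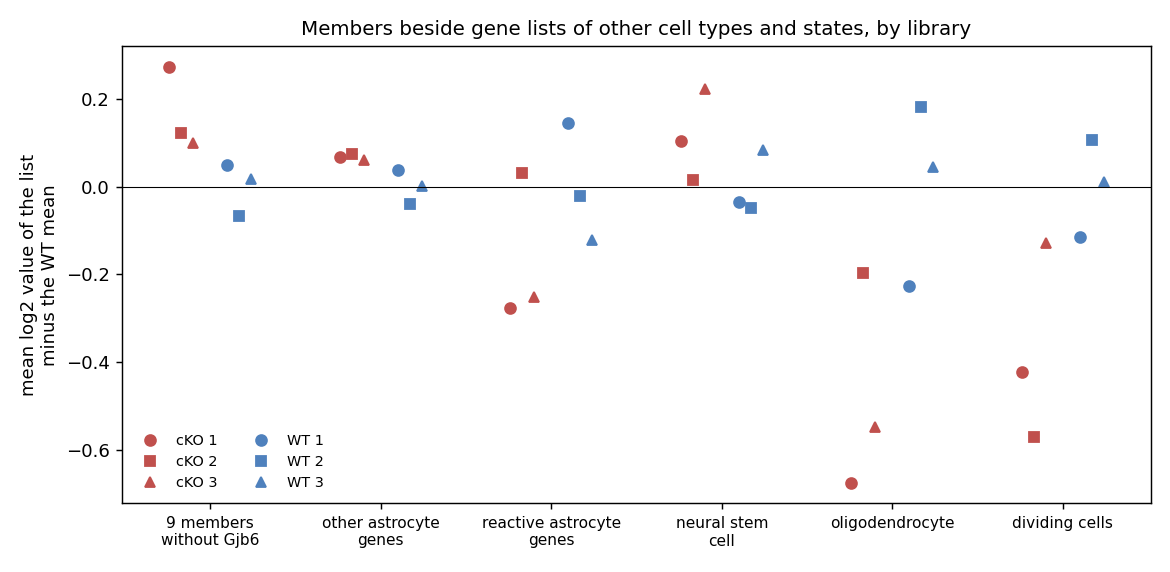
Mean log2(FPKM + 1) of each gene list minus its WT mean (y axis) for 6 lists (x axis), 1 point per library, with cKO-labelled libraries in red left of WT in blue. The 9 members without Gjb6 lie at 0.098 to 0.27 in cKO-labelled libraries, against -0.067 to 0.050 in WT, while dividing-cell markers lie at -0.57 to -0.13, against -0.12 to 0.10. Other astrocyte genes are also apart, at 0.060 to 0.074 in cKO-labelled libraries, against -0.040 to 0.038 in WT. The lists were made with earlier results known.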

How the data were processed

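RNA from 6 neurosphere libraries, 3 labelled cKO and 3 WT, went to the BGISEQ institute for library analysis, per the labels' protocols. The authors deposited FPKM with 2 decimals in 1 column per library, per the file headers. The submitters' processing notes name Bowtie2 and GRCm38 (mm10). The counting tool, the annotation and any filters are unnamed in the sources used here. A search for steps worth 1 fragment in 51 to 58 low values per library, from transcripts of 300 to 1500 bases, left 46.6% to 58.6% whole within 0.1 fragment at the best depth, so whole reads could not be recovered and count models were not used.

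Values were analysed as log2(FPKM + 1), a scale that understates changes of low genes, keeping genes whose mean reached 1 FPKM. Groups were compared over all 11596 tested genes with limma 3.58.1 in R 4.3.3 (eBayes with trend), two-sided, with Benjamini-Hochberg adjustment and a threshold of 0.05. The fit was tested on simulated data. Positions came from RefSeq on GRCm38.p6, where 14317 of 14327 identifiers were found, and figures from matplotlib 3.10.9 in Python 3.11.15. Library pairs correlated at r = 0.985 to 0.995 across genes and shared 1.31% to 1.91% identical values, so none was a duplicate.

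The members, lists and alternatives were chosen with earlier results of these data known. Genes named are the members, Slc22a17, some of the 4 others of lowest p in each list described, and the leading markers of other cell types. The 5 genes most like Gjb6 and the Y-linked pair are named too. Not all 4 are described in each list. Left out are for example Fgfr3 of other astrocyte genes (higher mean) and Timp1 and Osmr of reactive astrocyte genes (lower means). Acad11, Smarcal1 and Azin1 are given by r alone. Map2 and Ace were named from their lists after their values were seen. The Y-linked share is Ddx3y plus Eif2s3y relative to its mean in cKO-labelled libraries.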

Additional observations from a re-analysis of the deposited data

How the results depend on the processing

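In 15 of the 17 alternatives none of the 9 members given a test passed the threshold in limma. With library weights 2 passed, Sparcl1 (log2 fold change 0.53) and Cd44 (-0.44), and all genes past the threshold were 129, 54 higher and 75 lower. With the replicate number as a replicate block Sparcl1 passed (log2 fold change 0.52, adjusted p = 0.0377 in limma), 1 member, among 22 genes, 9 higher and 13 lower. Same-numbered libraries deviated together at r = -0.043, 0.305 and 0.258 for numbers 1, 2 and 3. Libraries of unlike number did so at r = -0.401 to 0.172. With so few libraries these values cannot decide if the numbers are pairs. The main fit was unpaired because the labels state no pairing.

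The count of 3 genes, 1 higher and 2 lower, became 0, 0 and 0 with no filter, with quantile normalization, without an intensity trend, after adjustment for the Y-linked share and with WT replicate 3 as the one WT library. Leaving out 1 library gave 0 to 10 genes, 0 to 4 higher and 0 to 6 lower, with the 10 without WT replicate 3. The members' median of 0.28 was 0.049 after adjustment for the Y-linked share, 0.20 against WT replicate 3 alone, and 0.21 to 0.40 with 1 library left out. After that adjustment the log2 fold change of Gjb6 was 0.85, and the signs turned for Aqp4 (0.18), Sparc (-0.23), S100b (-0.088), Ntsr2 (0.0023) and Acsbg1 (-0.12), each at an adjusted p above 0.95. The covariate follows the label apart from WT replicate 3. Signs also turned for Gja1 (-0.069 to 0.16) and Ntsr2 (-0.34 to 0.026) with 1 library left out. The cause of these differences was not tested. The directions of Sparcl1, Agt and Cd44 held in all 17 alternatives, though Sparcl1 fell to 0.095 after adjustment for the Y-linked share. The groups of Sparcl1 and Cd44 did not overlap, so leaving out libraries could not turn their signs. The direction of Gjb6 held too, but Gjb6 was picked on this contrast, so this supports nothing. Where WT replicate 3 is the one WT library, it is assumed to vary like the other group.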
